A study of Homo sapiens with 21 samples.

Results

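Connexins are the four-pass membrane proteins of gap junctions. They assemble into hexameric hemichannels, and a hemichannel that docks with one on a neighbouring cell forms a channel through which ions, metabolites and second messengers pass from cytoplasm to cytoplasm. Pannexin 1, encoded by PANX1, has a similar topology but forms unpaired channels that release ATP, and caspases open it by removing its C-terminal tail. In mammary tissue, connexin 43 (GJA1) is best known from the myoepithelium and connexin 26 (GJB2) from the luminal epithelium, whereas connexin 40 (GJA5) and connexin 37 (GJA4) are best known from endothelium.

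The 7 genes described here are GJA1, GJA3, GJA4, GJA5, GJB2, GJC1 and PANX1, found in the count table by matching its Ensembl identifiers to their symbols, out of 42339 genes listed. They are a chosen part of the family. They were chosen by the count values themselves, since GJA5 was selected on its level in MUC1-C-silenced mammospheres, among the largest rises there, so for the MUC1 silencing comparison the values of the 7 genes are given as a description without a test. RNA-seq was performed on 21 libraries, 3 in each of 7 groups, of BT-549 cells, an established triple-negative breast cancer (TNBC) line. 2D cells grew as monolayers. Serial passage 6 (S6) mammospheres (3D cells) were controls or exposed to 0.75 μM GO-203, a cell-penetrating peptide against the MUC1-C cytoplasmic domain. The controls are called untreated here because no vehicle is recorded for them, whereas the study's figure legends name vehicle as the reference for GO-203. These untreated 3D cells were compared with 2D cells and also served as the reference for GO-203. BT-549 cells carrying a tet-inducible MUC1shRNA were taken as S6 mammospheres after vehicle (0.1% DMSO) or 500 ng/ml doxycycline (DOX), and cells carrying a tet-inducible MYCshRNA were taken as S8 mammospheres after the same vehicle or DOX dose. Both lines carry a single shRNA in the pLKO-tet-puro vector and were selected in puromycin, and no line without a targeting shRNA was given DOX here, so effects of DOX and of the shRNA cannot be told apart. The MYC line also differs from the other mammospheres in passage, and line and passage cannot be told apart.

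Library totals ranged from 38026597 to 99751717 counts. The targeted transcripts matched the labels, with MUC1 lower on MUC1 silencing (log2 fold change -2.06) and MYC lower on MYC silencing (log2 fold change -0.62). MUC1 was higher on MYC silencing (log2 fold change 1.25, adjusted p = 5.1e-06, edgeR) and with GO-203 (0.33, adjusted p = 0.00191, edgeR). MYC was slightly higher on MUC1 silencing (log2 fold change 0.25, adjusted p = 5.0e-05, edgeR). Markers of the line itself matched its label in part. VIM lay between 1075 and 2485 CPM (read counts scaled to the library size, with TMM factors). ESR1 did not exceed 1.48 CPM, PGR 0.0684 CPM and EPCAM 0.125 CPM in any library. ERBB2, listed with the receptors absent in TNBC, lay between 18.4 and 42.0 CPM, and the epithelial marker KRT5 reached a group mean of 95.1 CPM with GO-203. Between 2D and 3D cells the mesenchymal marker SPARC went from 4463 to 287 CPM and FN1 from 451 to 6730 CPM as means. Of the markers for other cell types, CD3E and CDH5 did not exceed 0.0653 and 0.104 CPM, while COL3A1 and PECAM1 varied strongly between groups.

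The 6 connexins share a compact gene structure in which the whole coding sequence lies in 1 exon (GENCODE release 44, GRCh38). GJA1 spans 121435595 to 121449727 on chromosome 6 (+ strand) and encodes 382 residues. GJA4 (34792999 to 34795747, + strand) and GJA5 (147756199 to 147773362, - strand) are both on chromosome 1, with 333 and 358 residues. GJA3, the lens connexin 46, spans 20138255 to 20161052 and GJB2 spans 20187463 to 20192938, both on the - strand of chromosome 13 and separated by 26410 bases. GJC1, which encodes connexin 45, spans 44798448 to 44830816 on chromosome 17 (- strand). PANX1 (94128841 to 94181968 on chromosome 11, + strand) has its coding sequence spread over 5 exons. No annotated exon of another gene on the same strand overlaps the exons of these 7 genes. On the opposite strand, 20.3% of the GJA5 exon bases are shared with an unnamed antisense gene, and, because the strand setting of the counting is not given in the sources used here, reads of the pair cannot be told apart. GJA1 has a processed pseudogene, GJA1P1, on chromosome 5, counted at group means of 3.14 to 8.78 CPM.

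The sequences upstream of GJA5, GJA3 and GJB2 are shown because GJA5 was detected above a few counts in a single group, and because the neighbours GJA3 and GJB2 changed in opposite directions on MYC silencing. They are the 250 bases before the RefSeq transcript start (GRCh38.p14), for GJA5 without the 11 bases next to the start, which lie in a GENCODE exon, read 5′ to 3′ on the - strand, with capitals marking matches on either strand to any of 4 letter strings: CACGTG (the E-box bound by MYC and MAX), ACGTG (the core of the hypoxia response element, which every CACGTG contains), TGANTCA (AP-1) and GGGCGG (the GC box bound by SP1).
GJA5 (chr1:147773363-147773601): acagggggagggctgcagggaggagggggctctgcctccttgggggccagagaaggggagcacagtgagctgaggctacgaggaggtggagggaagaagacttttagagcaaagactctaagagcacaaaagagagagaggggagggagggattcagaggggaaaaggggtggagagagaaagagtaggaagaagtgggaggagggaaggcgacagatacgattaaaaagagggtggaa
GJA3 (chr13:20161053-20161302): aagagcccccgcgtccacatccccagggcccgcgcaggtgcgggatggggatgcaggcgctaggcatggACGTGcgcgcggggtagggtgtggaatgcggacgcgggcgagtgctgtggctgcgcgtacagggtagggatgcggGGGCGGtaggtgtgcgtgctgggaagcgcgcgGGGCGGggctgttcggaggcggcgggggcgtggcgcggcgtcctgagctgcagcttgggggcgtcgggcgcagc
GJB2 (chr13:20192939-20193188): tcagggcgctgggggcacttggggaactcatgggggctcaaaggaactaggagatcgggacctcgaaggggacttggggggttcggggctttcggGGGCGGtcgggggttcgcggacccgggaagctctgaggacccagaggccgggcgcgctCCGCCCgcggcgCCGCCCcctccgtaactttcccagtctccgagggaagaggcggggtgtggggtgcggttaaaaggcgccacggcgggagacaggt
The 250 bases before the GJA5 start held none of these strings, and neither did the 250 bases before its second RefSeq start. GJA3 had 1 ACGTG and 2 GGGCGG matches, and GJB2 had 3 GGGCGG matches. Over 35116 RefSeq promoters, 42.6% held GGGCGG within the 250 bases before the start, 18.5% held ACGTG, 6.57% held TGANTCA and 6.34% held CACGTG, so the matches are common ones. The windows also differed in base composition, with 74.8% G+C before GJA3 and 70.0% before GJB2 against 55.6% before GJA5 and a median of 58.0% over all promoters. Among the other members with a RefSeq window, GJA1 had 1 TGANTCA match and PANX1 had 1 ACGTG and 1 GGGCGG match. None of the 5 genes with a window had a CACGTG there.

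To compare transcripts of different length, CPM were divided by the kilobases of annotated exon. On that scale GJA1 made up 88.1% to 97.3% of all connexin transcripts as a group mean, over 17 connexins listed in the table. GJC1 was the next most abundant connexin in 6 of 7 groups, at 5.43 to 9.99 CPM per kb, and was exceeded by GJB2 only in MYC-silenced mammospheres (10.3 against 5.46 CPM per kb). The summed level of all connexins was highest in vehicle-treated tet-MUC1shRNA mammospheres (285 ± 13.8 CPM per kb, SD, n = 3) and lowest in vehicle-treated tet-MYCshRNA mammospheres (146 ± 7.40, SD, n = 3). The latter group also had the most mixed pool, with 5.83% GJC1, 3.93% GJB2 and 1.98% GJA3. In bulk RNA, fewer cells that express a gene and less of its RNA per cell cannot be told apart.

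GJA1 fell in 3D vs. 2D cells and rose on MYC silencing. The 2D libraries had 892, 837 and 804 CPM and the 3D libraries 558, 552 and 609 CPM. Across all groups, GJA1 was highest in vehicle-treated tet-MUC1shRNA mammospheres (941 ± 46.2 CPM, SD, n = 3) and lowest in vehicle-treated tet-MYCshRNA mammospheres (435 ± 23.1 CPM, SD, n = 3). Among neighbours in this order, the ranges of the former, of 2D cells and of MYC-silenced mammospheres overlapped in turn, as did those of MUC1-silenced mammospheres and 3D cells. The vehicle groups of the 2 tet lines thus lay at opposite ends, although both were mammospheres given DMSO.

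GJB2 and GJA3 had their lowest levels in 2D cells. GJB2 counts in 2D cells were 2, 4 and 0, below or near the 3 counts taken as the detection floor (0.0295 to 0.0783 CPM, depending on the library). The 3D libraries had 3.36, 2.75 and 2.76 CPM of GJB2, the vehicle-treated tet-MUC1shRNA libraries 0.574, 0.0941 and 0.629, and the vehicle-treated tet-MYCshRNA libraries 13.6, 14.4 and 14.5. Mammospheres of the 3 kinds therefore did not share a GJB2 level, and their ranges did not overlap. GJA3 had 0.843, 0.730 and 0.684 CPM in 2D cells and ranged from 2.98 to 15.9 CPM in the mammosphere libraries, with vehicle-treated tet-MYCshRNA mammospheres highest and separate from all others. The other mammosphere groups followed in the order MYC-silenced, untreated 3D, GO-203-treated, vehicle-treated tet-MUC1shRNA and MUC1-silenced, each overlapping with the next.

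GJC1 was highest in 2D cells (87.1 ± 4.26 CPM, SD, n = 3), followed by vehicle-treated tet-MYCshRNA mammospheres (74.0 ± 3.81). These ranges were apart, and the remaining 5 groups had means between 47.4 and 54.9 CPM. PANX1 was likewise highest in 2D cells (46.4 ± 0.904 CPM, SD, n = 3) and lay at 13.5 to 25.3 CPM as a mean in every mammosphere group, lowest in the 2 tet-MUC1shRNA groups, whose ranges overlapped. GJA4 stayed between 0 and 17 counts in every library and never exceeded 0.323 CPM, and its ranges overlapped between all neighbouring groups, although the MYC-silenced and the vehicle-treated tet-MUC1shRNA libraries (0.142 to 0.323 and 0.165 to 0.236 CPM) all lay above those of 3D and 2D cells (up to 0.0781 and 0.0695 CPM).

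**Figure D1:**
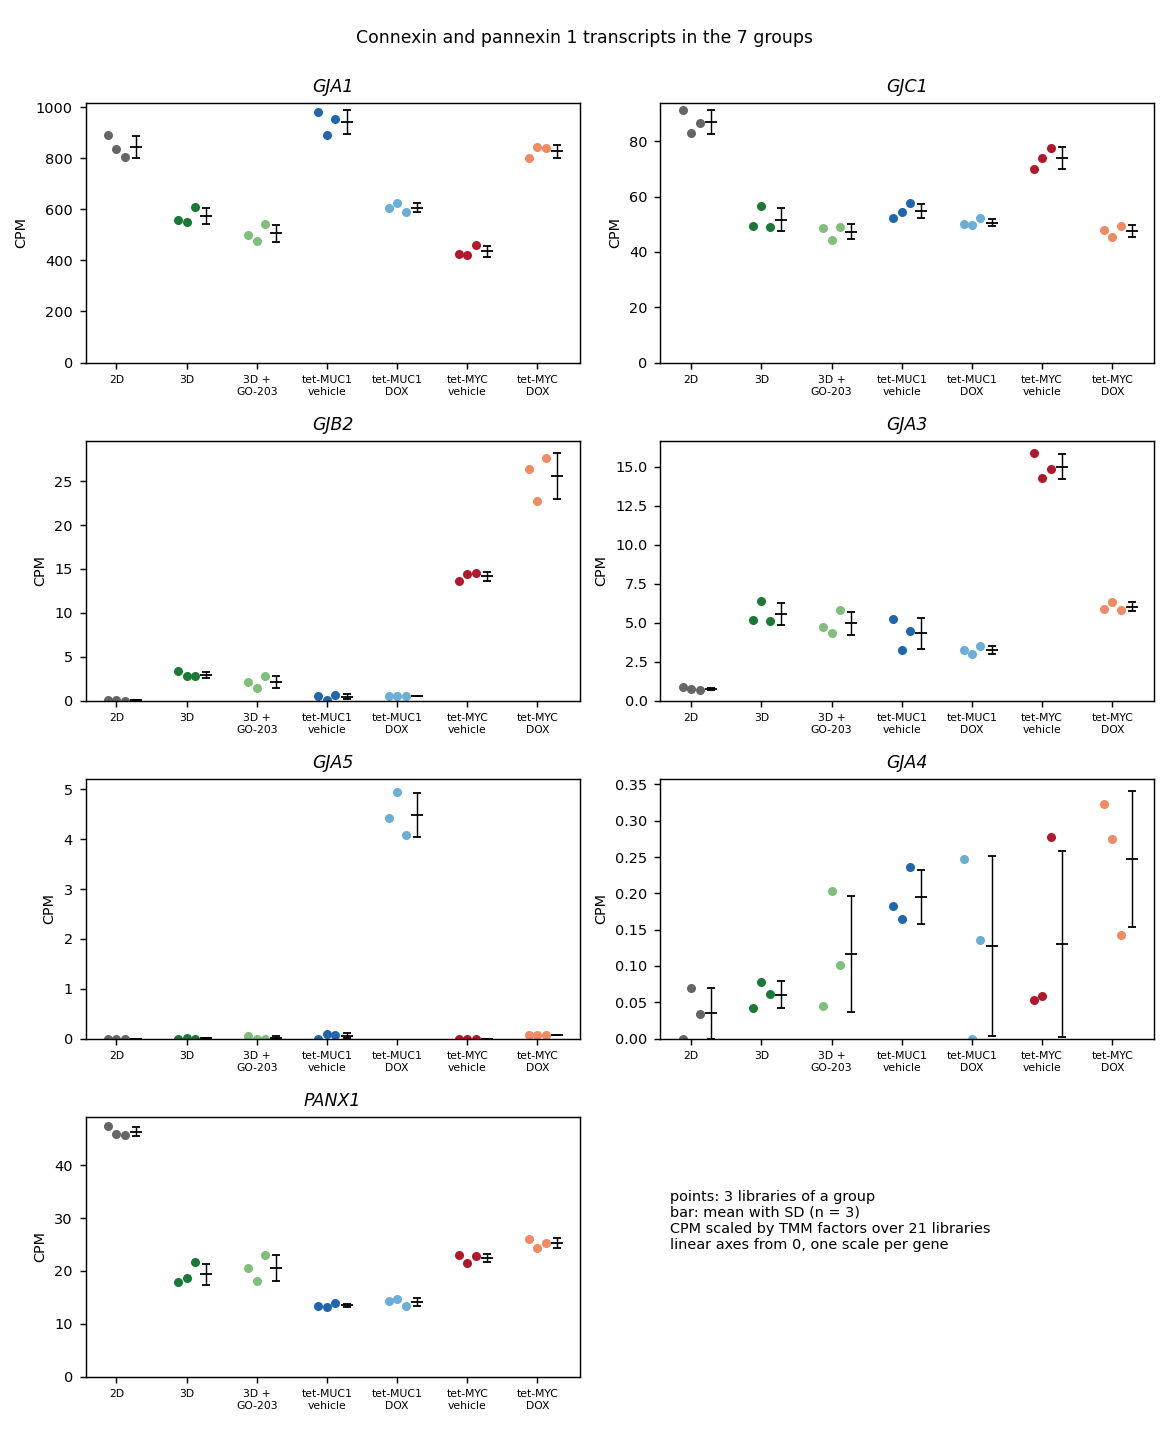
CPM of each gene in the 21 libraries, with 1 panel and 1 linear axis from 0 per gene. Points are libraries and the bar beside them the mean with SD (n = 3). GJA5 rises above 0.1 CPM only in DOX-treated tet-MUC1shRNA mammospheres, GJB2 is highest in the 2 tet-MYCshRNA groups, and PANX1 is highest in 2D cells.

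To address how connexin transcripts differ between 3D and 2D cells, the 3 libraries of each were compared by edgeR's quasi-likelihood test, with Benjamini-Hochberg adjustment over 19190 genes and a call at an adjusted p below 0.1. GJB2 passed the low-count filter through its 3D libraries alone and is given separately. Of the 4 other members that passed, 4 were called, where 63.7% of all genes were called in that comparison, so a call by itself is common. These were 1 upregulated and 3 downregulated members, where 32.0% of all genes were called higher and 31.7% lower. GJA5 and GJA4 did not pass the filter. PANX1 was downregulated, from 47.4, 45.9 and 45.8 CPM in 2D cells to 17.8, 18.7 and 21.6 CPM in 3D cells (log2 fold change -1.26, SE 0.08, adjusted p = 4.3e-10, edgeR). GJC1 fell from 91.5, 83.0 and 86.8 to 49.5, 56.6 and 49.0 CPM (log2 fold change -0.76, SE 0.07, adjusted p = 1.0e-07, edgeR). GJA1, the main connexin, decreased less (log2 fold change -0.56, SE 0.06, adjusted p = 2.4e-07, edgeR). Its pseudogene GJA1P1 changed in the same direction (log2 fold change -0.41, adjusted p = 0.0184, edgeR), and how reads that fit both copies were counted is not given in the sources used here.

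Among the upregulated genes, GJA3 increased by a log2 fold change of 2.88 (SE 0.19, adjusted p = 1.8e-09, edgeR), from a 2D range of 0.684 to 0.843 CPM to a 3D range of 5.08 to 6.40 CPM. GJB2, which had to differ to pass the filter, had summed counts of 6 in 2D and 481 in 3D cells, a ratio of 78.8 after scaling, with an exact 95% binomial interval of 35.9 to 216. Its fitted log2 fold change was 6.22, with 7.09 when 2D replicate 2 and 5.60 when 2D replicate 3 was left out. That interval covers counting error only, and low counts were even in 67% to 71.1% of genes with 1 to 20 counts in every library, as when both mates of a pair are counted, so the number of fragments is smaller than the counts. With vehicle-treated tet-MYCshRNA mammospheres in place of the untreated 3D cells, the 4 members that did not have to differ kept their direction and call, but the log2 fold change was 4.33 for GJA3 and -0.23 for GJC1, -0.95 for GJA1 and -1.04 for PANX1. GJB2, which again passed the filter through the mammosphere libraries, had 8.5. With vehicle-treated tet-MUC1shRNA mammospheres, which are S6 like the 3D cells, in their place (chosen after seeing the data), GJA1 was instead higher than in 2D cells (log2 fold change 0.15, adjusted p = 0.0204, edgeR), so its lower level in mammospheres did not hold for that line. GJA3 (2.51), GJC1 (-0.67) and PANX1 (-1.79) kept their direction and call there, and GJB2 did not pass the filter. Markers of other cell types moved in this comparison too. COL3A1 was lower in 3D cells (800.5 ± 142 to 87.1 ± 4.92 CPM, SD, n = 3). PTPRC was lower as well (67, 72 and 60 to 2, 6 and 2 counts) and PECAM1 higher (0.0114 ± 0.0197 to 6.76 ± 0.743), the 7 summed ranging from 642 to 911 CPM in 2D and from 87.8 to 98.8 in 3D libraries, with CDH5 and CD3E at 0 in both groups. The epithelial markers summed to 1.91 to 2.17 CPM in 2D and 23.0 to 26.8 in 3D libraries, the latter nearly all KRT5, while CDH1 went from 67, 87 and 74 counts to 0, and EPCAM did not exceed 0.125 CPM. Their part in the connexin differences was not tested.

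Outside the 7 genes, PANX2, GJB5 and GJB7 are described among the other connexins and pannexins, as those with at least 10 counts in some library. PANX2, a pannexin best known from the brain, was downregulated in 3D vs. 2D cells (1.76 ± 0.288 to 0.454 ± 0.175 CPM, SD, n = 3, log2 fold change -1.95, adjusted p = 4.7e-05, edgeR). GJB6, which lies 29023 bases from GJB2, never exceeded 2 counts.

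When MUC1-C was silenced, GJA5 stood out from every other group. The vehicle-treated tet-MUC1shRNA libraries had 0, 4 and 4 counts of GJA5 and the DOX-treated ones 250, 356 and 180 counts, or 4.42, 4.96 and 4.08 CPM. Over the groups this was 8 against 786 counts, a depth-scaled ratio of 75.0 with an exact 95% interval of 37.9 to 174, for counting error only. With every sum halved, as for fragments counted by both mates, the interval was 29.1 to 277. The fitted log2 fold change was 6.18, which depends on the prior count because the vehicle libraries lie near the floor, and it lay between 5.69 and 6.60 when any one library was left out. This is the contrast by which GJA5 was chosen, so these values carry no test.

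In the other 15 libraries GJA5 had at most 4 counts. It was at 0 in the 3 libraries of 2D cells and of vehicle-treated tet-MYCshRNA mammospheres, which allows up to 3 counts each, at 0, 1 and 0 counts in 3D cells, at 2, 0 and 0 with GO-203, and at 4, 4 and 4 in MYC-silenced mammospheres. The GJA5 level per kb in MUC1-silenced mammospheres (1.37 CPM per kb) exceeded those of GJA3 (0.624) and GJB2 (0.208) there, but was 0.728% of connexin transcripts, against 95.5% for GJA1. Epithelial markers were also higher in those libraries. Their 7-gene sum ranged from 17.2 to 19.4 CPM with DOX and from 0.964 to 1.81 with vehicle, most of it KRT5, while EPCAM did not exceed 0.0454 CPM and KRT19 was at 0 with DOX. KRT8 went from 0, 2 and 4 to 78, 108 and 50 counts and KRT18 from 0, 4 and 1 to 55, 64 and 35 counts, levels above those of any other group, and both passed the filter through the DOX libraries. The part of these cells or genes in the GJA5 difference was not tested. Markers of other cell types summed to 10.2 to 12.1 CPM with DOX and 16.1 to 18.3 with vehicle. Of these, CDH5, which marks the endothelium, was at 0 in the DOX-treated libraries. PECAM1, from the same list, was detected there at a mean of 2.99 CPM, below its vehicle mean of 4.05 CPM. Whether these markers bear on the GJA5 level was not tested.

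The other members differed less on silencing MUC1-C. As a description, 6 of the 7 passed the filter and 3 of these were past the threshold, where 62.2% of all 19220 genes were, 30.7% higher and 31.6% lower. The 3 were GJA5 (higher), which was selected on this rise and passed the filter through its DOX libraries, and GJA1 and GJA3 (both lower), and nothing is read from their number. GJA1 had 980.0, 890.0 and 954 CPM with vehicle and 604, 627 and 591 with DOX, without overlap (log2 fold change -0.61, SE 0.04), and GJA1P1 was lower too (log2 fold change -0.52). GJA3 ranged from 3.25 to 5.22 CPM with vehicle and from 2.98 to 3.52 with DOX, which overlapped (log2 fold change -0.38, SE 0.17). PANX1 had a log2 fold change of 0.09 (SE 0.08) with overlapping ranges, and GJC1 one of -0.09 (SE 0.05) with ranges that did not overlap, lower with DOX. Scaling by library size alone, which raised the median of all genes by 0.165 on the log2 scale, turned GJC1 to 0.07 and moved PANX1 to 0.26 and GJA1 to -0.44. GJB2 stood at 0.574, 0.0941 and 0.629 CPM with vehicle and at 0.495, 0.501 and 0.545 CPM with DOX (log2 fold change 0.26, SE 0.47), and vehicle replicate 2 alone set its sign, since the log2 fold change was -0.22 without it. GJA4, at 7, 7 and 12 against 14, 0 and 6 counts, did not pass the filter.

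PANX2 was tested on MUC1 silencing and was upregulated, from 0.964 ± 0.296 to 3.08 ± 0.307 CPM (SD, n = 3, log2 fold change 1.71, SE 0.22, adjusted p = 1.0e-06, edgeR), its highest level in any group. GJB5, at 0 to 8 counts with vehicle and 6 to 16 with DOX, and GJB7, at 3 to 12 against 2 to 18, did not pass the filter.

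**Figure D2:**
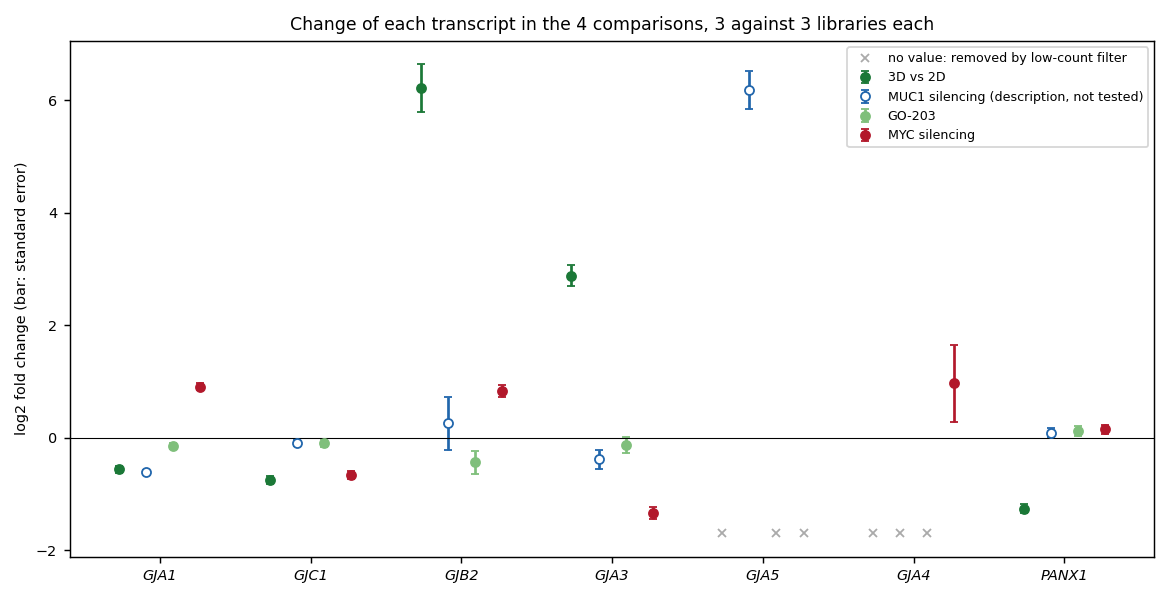
Fitted log2 fold change (points) and standard error (bars) of each gene in the 4 comparisons, 3 against 3 libraries each. Open points mark the MUC1 silencing values, which are a description, and grey crosses at the bottom mark genes with no value because the low-count filter removed them. GJB2 in 3D vs. 2D cells (6.22) and GJA5 on MUC1 silencing (6.18) have the largest values, and GJA1 lies below 0 on MUC1 silencing and above 0 on MYC silencing.

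Treatment with GO-203 addresses the effect of blocking MUC1-C by a peptide. It was compared with the same untreated 3D libraries as above, so the 2 comparisons share those samples. Of 5 members tested, 1 was called, and called lower, against 24.1% of 18488 genes (11.1% higher and 12.9% lower). GJA1 was lower with GO-203, at 501, 475 and 542 CPM against 558, 552 and 609 CPM, without overlap (log2 fold change -0.15, SE 0.05, adjusted p = 0.0545, edgeR). This call was lost at an adjusted p below 0.05 and when 3D replicate 1 or 3 or GO-203 replicate 1 or 2 was left out, with adjusted p of 0.107, 0.203, 0.198 and 0.146 (edgeR).

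GJB2 had 2.12, 1.42 and 2.78 CPM with GO-203, which overlapped with 3D cells (log2 fold change -0.44, SE 0.21, adjusted p = 0.168, edgeR). Without GO-203 replicate 3 it was called (log2 fold change -0.69, adjusted p = 0.0509, edgeR). It was also called when replicate numbers entered the fit as a block (log2 fold change -0.47). GJA3, GJC1 and PANX1 had log2 fold changes of -0.13, -0.10 and 0.12, with adjusted p of 0.616, 0.36 and 0.424 (edgeR) and overlapping ranges. Of the other family genes, PANX2 alone passed the filter (log2 fold change -0.82, adjusted p = 0.261, edgeR), so 0 of 1 were called, with an unadjusted p of 0.0961. The summed epithelial markers ranged from 23.0 to 26.8 CPM in 3D and from 91.5 to 98.3 in GO-203-treated cells, nearly all of it KRT5, and the other-cell-type markers from 87.8 to 98.8 and from 182 to 192 CPM, mostly COL3A1 (87.1 ± 4.92 to 179 ± 5.33 CPM, SD, n = 3), with CDH5 and CD3E at 0. Their part in the GJA1 difference was not tested.

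Silencing MYC changed 4 of the 6 members tested, 2 up and 2 down, where 58.5% of 19951 genes were called (30.3% higher and 28.1% lower), and it moved the chromosome 13 neighbours in opposite directions. GJA3 fell from 15.9, 14.3 and 14.9 CPM to 5.89, 6.33 and 5.81 CPM (log2 fold change -1.34, SE 0.10, adjusted p = 2.4e-06, edgeR), whereas GJB2 rose from 13.6, 14.4 and 14.5 to 26.3, 22.7 and 27.7 CPM (log2 fold change 0.83, SE 0.10, adjusted p = 5.4e-05, edgeR). In 3D vs. 2D cells GJA3 had been upregulated, while GJB2, also higher there, had to differ to pass the filter.

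GJA1 rose on MYC silencing, from 424, 420.4 and 462 CPM to 799.7, 843 and 839 CPM (log2 fold change 0.91, SE 0.06, adjusted p = 9.0e-07, edgeR), and its pseudogene GJA1P1 rose with it (log2 fold change 0.79, adjusted p = 0.00793, edgeR). GJC1 fell from 70.1, 74.2 and 77.7 to 48.0, 45.3 and 49.4 CPM (log2 fold change -0.66, SE 0.07, adjusted p = 2.5e-05, edgeR). The ranges of both genes were separate. With these changes the summed connexin level went from 146 ± 7.40 to 261 ± 6.60 CPM per kb (SD, n = 3), and the share of GJA1 from 88.1% to 93.3%. PANX1 lay slightly higher with DOX without overlap, but did not pass the test (log2 fold change 0.15, SE 0.08, adjusted p = 0.157, edgeR).

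GJA4 had 4, 6 and 17 counts with vehicle and 16, 16 and 9 with DOX (log2 fold change 0.97, SE 0.69, adjusted p = 0.272, edgeR). It passed the test only without vehicle replicate 3 (log2 fold change 2.04, adjusted p = 0.0406, edgeR). PANX2 was upregulated (0.468 ± 0.172 to 1.46 ± 0.617 CPM, SD, n = 3, log2 fold change 1.60, adjusted p = 0.00425, edgeR), and GJB7 was not called (log2 fold change 1.07, adjusted p = 0.148, edgeR). COL3A1, listed as a marker of other cell types, rose in the same libraries from 10.8 ± 0.381 to 216 ± 2.36 CPM (SD, n = 3). The 7 such markers summed to 17.2 to 18.5 CPM with vehicle and 224 to 229 with DOX. CDH5 was at 0 in all 6 libraries, whereas PECAM1 rose from a mean of 6.74 to 9.36 CPM. Epithelial markers ranged from 4.0 to 6.69 CPM with vehicle and from 54.6 to 73.1 with DOX in sum, nearly all of it KRT5 (5.16 ± 1.39 to 66.0 ± 9.99 CPM, SD, n = 3), with EPCAM, KRT14 and KRT19 at 0 with DOX. Their part in these changes was not tested.

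The response of the members to GO-203 and to MYC silencing was set against each other in a fit over the 12 libraries, which share no sample between the 2 contrasts. Of 6 members tested, 4 differed, 2 in each direction, where 42.5% of 21076 genes did (19.8% higher and 22.8% lower). The GO-203 log2 fold change minus that of MYC silencing was -1.09 for GJA1 (SE 0.08, adjusted p = 1.1e-08, edgeR) and -1.29 for GJB2 (SE 0.22, adjusted p = 0.000155, edgeR). It was 1.18 for GJA3 (SE 0.18, adjusted p = 4.4e-05, edgeR) and 0.53 for GJC1 (SE 0.10, adjusted p = 0.000547, edgeR). For PANX1 the difference was -0.07 (SE 0.13, adjusted p = 0.716, edgeR), and for GJA4 it was -0.06 with an SE of 1.35, too wide to read. Outside the 7 genes, PANX2 also differed (-2.46, SE 0.57, adjusted p = 0.00253, edgeR). The passage and the line differ between these contrasts as well, and cannot be told apart from the agents.

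Genes around the channels were then examined by list. The counts and medians leave out called genes with a mean count under 10 in the lower group, which passed the filter through the other group and had to differ, and these are named. Uncalled genes with counts as low stay in, so the exclusion depends on the call itself and can move a median. For the P2 receptors in 3D vs. 2D cells the median log2 fold change was 0.25 with all tested genes and 1.47 after the exclusion. The counts are to be read against the shares of all genes called higher and lower, which were 30.7% and 31.6% when MUC1-C was silenced, 30.3% and 28.1% when MYC was, 11.1% and 12.9% with GO-203 and 32.0% and 31.7% between 3D and 2D cells. In the list of gap junction partners and turnover, 9 of 21 genes rose and 8 fell in 3D vs. 2D cells (median log2 fold change -0.005, against -0.01 over all genes), leaving out CDH1 (E-cadherin, with 67, 87 and 74 counts in 2D and 0 in each 3D library). CDH2 (N-cadherin), whose adhesion precedes gap junction assembly, fell from 441 ± 11 to 51.2 ± 0.873 CPM (SD, n = 3, log2 fold change -3.11, adjusted p = 1.4e-16, edgeR), and DBN1, a drebrin that links connexin 43 to actin, fell by 1.94 on the log2 scale. On MUC1 silencing, 10 of 21 rose and 7 fell without CDH1 (median 0.12, against 0.02), with CDH2 up by a log2 fold change of 2.67 and NEDD4, a ubiquitin ligase of connexin 43, by 1.49. On GO-203, 3 of 21 fell and 0 rose (median 0.01, against 0.02), NEDD4 among them (log2 fold change -0.27, adjusted p = 0.00109, edgeR). On MYC silencing, 15 of 21 rose and 3 fell (median 0.30, against 0.01), with CCN3, a matricellular protein that binds connexin 43, at a log2 fold change of 1.57 and the kinase SRC at 1.02.

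PANX1 channels release ATP, and of the purinergic P2 receptors that sense extracellular nucleotides, 4 to 6 passed the filter in each comparison. In 3D vs. 2D cells 2 of 3 rose and 1 fell without P2RX6 (33, 42 and 58 to 2, 2 and 0 counts). On MYC silencing 1 of 3 rose and 2 fell without P2RX5, P2RY2 (4, 4 and 6 to 32, 48 and 38 counts) and P2RY6 (11, 6 and 4 to 36, 36 and 52 counts). P2RX5, an ATP-gated cation channel, rose in 3D vs. 2D cells by a log2 fold change of 4.13, and had 454, 565 and 337 counts with vehicle against 6, 10 and 11 with DOX on MYC silencing, where it passed the filter through the vehicle libraries. P2RX4, of the same channel family, went the other way in both comparisons, with log2 fold changes of -0.98 and 1.25. By edgeR, 0 of 6 were called on MUC1 silencing (median 0.16) and 0 of 4 with GO-203 (median 0.31), and 0 had an unadjusted p below 0.05 in either.

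Enzymes and carriers for extracellular ATP and adenosine rose in 6 of 8 and fell in 2 of 8 cases in 3D vs. 2D cells (median log2 fold change 0.63). NT5E, the ecto-5′-nucleotidase that makes adenosine from AMP, went from 199 ± 2.19 to 794 ± 48.4 CPM (SD, n = 3, log2 fold change 1.99, adjusted p = 2.3e-14, edgeR), and fell with GO-203 to 415 ± 38.2 CPM (log2 fold change -0.91, adjusted p = 1.7e-10, edgeR), 1 of 2 genes of 8 called lower there with 0 higher (median -0.09). The other was ADORA2B, an adenosine receptor (log2 fold change -0.20). On MYC silencing 6 of 8 fell and 2 rose (median -1.42) without ENTPD3 (0, 11 and 8 to 17, 20 and 16 counts). The nucleoside carrier SLC29A1 fell from 113 ± 8.59 to 26.2 ± 4.33 CPM (SD, n = 3) and ENTPD1 (CD39), which hydrolyses ATP, by 1.74 on the log2 scale, while its relative ENTPD2 rose by a log2 fold change of 3.82. On MUC1 silencing 3 of 8 rose and 4 fell (median -0.10), with ADA, adenosine deaminase, at -1.02.

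Of the other large-pore channels, LRRC8A to LRRC8D, subunits of the volume-regulated anion channel, and CALHM2 were expressed enough to be tested. In 3D vs. 2D cells 3 of 5 rose and 2 fell (median log2 fold change 0.72), with LRRC8A, the obligatory subunit, at 0.88 and LRRC8C at -1.29. On MYC silencing 0 of 5 rose and 3 fell (median -1.54), LRRC8B from 67.2 ± 1.97 to 19.2 ± 1.32 CPM (SD, n = 3, log2 fold change -1.83, adjusted p = 6.0e-08, edgeR). On MUC1 silencing 4 rose and 1 fell (median 0.38), with LRRC8D at 0.59 and CALHM2 at -0.53, and with GO-203 LRRC8D alone was called (log2 fold change -0.28, adjusted p = 0.00572, edgeR).

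**Figure D3:**
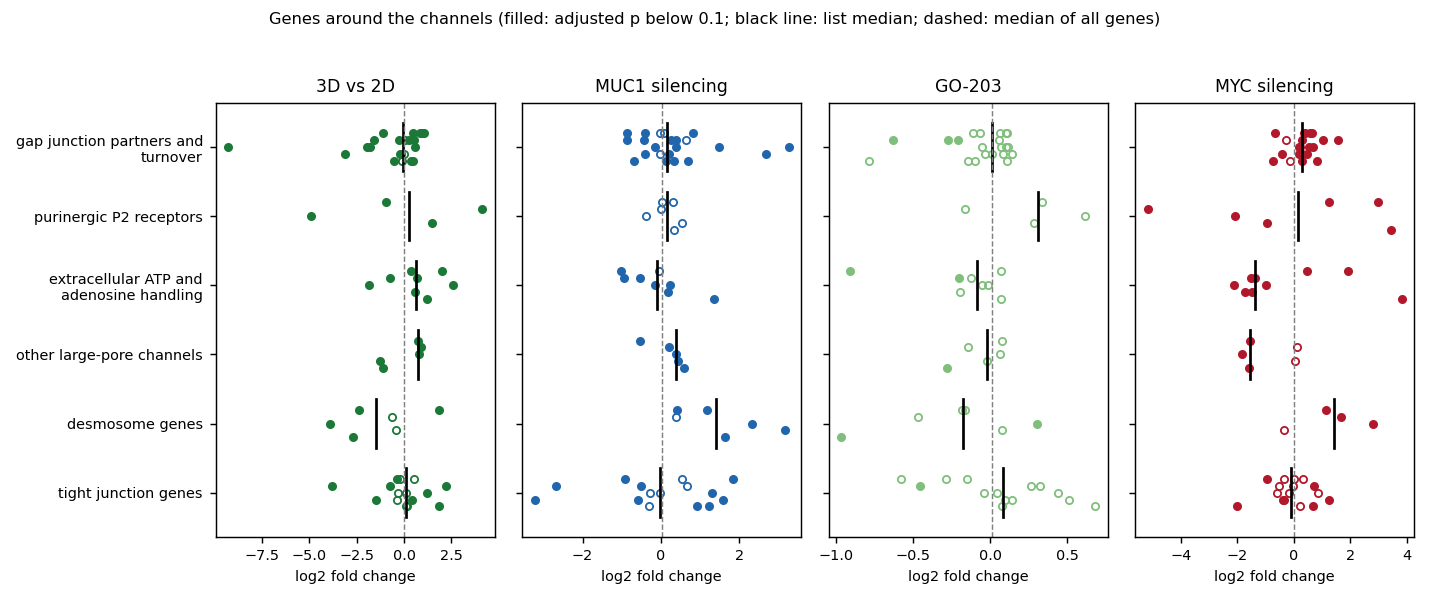
Log2 fold change of each tested gene in 6 lists (rows) and 4 comparisons (panels, each with its own axis). Filled points passed an adjusted p below 0.1, black lines are list medians over all tested genes and dashed lines the median of all genes. The large-pore channel median lies at -1.54 and the desmosome median at 1.42 on MYC silencing, and most points of the GO-203 panel are open.

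Genes whose profile over the 21 libraries was most like that of each member were found by Pearson's r of log2(CPM + 0.5) among 13584 genes with a mean of at least 1 CPM. These are descriptions over 7 groups of 3 libraries, which share their library depth and conditions. GJA5 was most like MUCL1 (r = 0.99), ITGA2 (0.98) and BMP6 (0.97). GJB2 was most like ZFYVE9 (0.98), GOLGA4 (0.97) and EPHA7 (0.96), whereas its neighbour GJA3 was most like IL4R, LUCAT1 and CASP4 (0.95 each). GJA1 followed OLFM2 (0.93), CLTC (0.92), which encodes clathrin heavy chain, and DNAL4 (0.92). GJC1 followed CLOCK (0.97), VEGFC (0.96) and DEPDC1 (0.94), and PANX1 followed GNPTAB, MAGI3 and CD24 (0.97 each). The best match of GJA4 was lower, ZBTB20 at 0.75, then SPDYE6 at 0.72 and EIF4E3 at 0.71.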

How the data were processed

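The authors deposited raw counts per gene, made from stranded paired-end mRNA libraries (CASAVA 1.8.2, STAR alignment to GRCh38, featureCounts). STAR is version 2.7.3a in the submitters' processing notes, and the study's methods name another version. The annotation release, strand setting and handling of multi-mapping reads are not given in the sources used here. Genes with no value in a library (4952 to 7587) were read as 0. The 7 genes, the lists and the tests were chosen with earlier results of these data known. Some genes of the family and the lists are not reported here, and counts leave them out. The limit of a mean count of 10 in the lower group for list counts was set after seeing the data.

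Each comparison used its own 6 libraries in R 4.3.3 with edgeR 4.0.16 (filterByExpr, TMM factors, quasi-likelihood test, Benjamini-Hochberg adjustment over all genes tested). The call was an adjusted p below 0.1. Levels are CPM over 21 libraries. The study's methods give triplicate cultures of 1 cell line, so p-values measure the spread between such cultures. Intervals and floors (3 counts) cover counting error only. Gene lengths were read from GENCODE release 44 and upstream sequences from RefSeq, which held windows for 5 of the 7 genes. Named genes were the 7, other family genes with at least 10 counts in some library, in each other list and comparison at most the 2 largest rises and falls among called genes with a mean of at least 1 CPM, and the 3 most alike genes per member. Alternatives were DESeq2 1.42.0, RLE factors, library size alone, a pair of other filters, all 21 libraries in one fit, a replicate block, an adjusted p below 0.05, vehicle-treated mammospheres of either tet line for 3D cells (tet-MUC1shRNA added after seeing the data), and leaving out each library.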

Additional observations from a re-analysis of the deposited data

Results flagged for a closer look

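The change with GO-203 and the change on MYC silencing differed for 4 connexins by edgeR's interaction test over 12 libraries, where 42.5% of 21076 genes differed. Of these 4, GJA1 alone was called in the GO-203 comparison itself. Line and passage also differ between the contrasts and cannot be told apart from the agents. The difference in log2 fold change, GO-203 minus MYC silencing, was -1.09 for GJA1, -1.29 for GJB2, 1.18 for GJA3 and 0.53 for GJC1. None of these differences changed sign or lost its call when any of the 12 libraries was left out.

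GJA1 was lower in every DOX-treated tet-MUC1shRNA library than in any vehicle-treated one (log2 fold change -0.61) and higher in every DOX-treated tet-MYCshRNA library than in any vehicle-treated one (log2 fold change 0.91). The difference between these 2 contrasts was not tested. GJA1 was chosen with the MUC1 silencing values known. With any one library left out, the GJA1 log2 fold change lay between -0.65 and -0.59 on MUC1 silencing and between 0.86 and 0.93 on MYC silencing. No further search for single libraries that stand apart was made.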

How the results depend on the processing

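GJA1 was higher than in 2D cells (log2 fold change 0.15) when vehicle-treated tet-MUC1shRNA mammospheres, an alternative chosen after seeing the data, took the place of 3D cells. The members called between 3D and 2D cells and on MYC silencing stayed within 1.5 times their number under every alternative run. With GO-203 the count was 1, and it became 2 with the replicate block (GJB2 added, log2 fold change -0.47, adjusted p = 0.0907, edgeR), 0 at an adjusted p below 0.05, and 0 to 2 when a library was left out. The block also raised the list genes called with GO-203 from 9 to 14, and changed no other count beyond 1.5 times. The replicate numbers were not taken to pair samples, because same-numbered libraries did not correlate above 0.1 in every pair of any comparison (means -0.04, 0.03, 0.11 and -0.18 for 3D vs. 2D, MUC1 silencing, GO-203 and MYC silencing), although with GO-203 every library correlated best with its own number. Other family genes called on MYC silencing numbered 2 in place of 1 without a filter, and 1 to 2 when a library was left out. Beside that value and the MUC1 silencing values of GJC1 and GJB2 given in the report, signs turned for uncalled values alone: in GO-203 minus MYC silencing, GJA4 (0.00309 by library size alone, -1.15 to 0.35 over left-out libraries) and PANX1 (-0.14 to 0.0403). The cause was not tested. Counts were low for GJA4 (0 to 17 per library) and for GJA5 outside MUC1-silenced mammospheres (0 to 4 per library), and the part of depth in this was not tested.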

Other observations

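Other cell junction genes were tested in the same fits, against the same shares of all genes called (30.7% higher and 31.6% lower on MUC1 silencing). Desmosome genes, the anchoring junctions of epithelia, were upregulated in 4 of 5 cases on MUC1 silencing with 0 downregulated (median log2 fold change 1.16, against 0.02 over all genes), leaving out DSP, desmoplakin, which passed the filter through the DOX libraries (10, 10 and 4 to 96, 118 and 72 counts). DSG2, a desmoglein, rose from 6.83 ± 0.487 to 34.0 ± 0.233 CPM (SD, n = 3, log2 fold change 2.33, adjusted p = 5.3e-16, edgeR), and JUP, plakoglobin, by a log2 fold change of 1.62. On MYC silencing 3 of 4 rose and 0 fell (median 1.42), with JUP at 2.79 and DSG2 at 1.68. In 3D vs. 2D cells 1 of 6 rose and 3 fell (median -1.5), DSG2 from 100.1 ± 2.23 to 6.61 ± 0.111 CPM (SD, n = 3), while PKP3, a plakophilin, rose by a log2 fold change of 1.84. With GO-203, DSG2 was called higher (log2 fold change 0.30) and JUP lower (log2 fold change -0.96), 2 of 6 genes, with a median of -0.17.

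On MUC1 silencing 4 of 14 tight junction genes rose and 5 fell (median log2 fold change -0.16), leaving out CLDN9 (12, 3 and 4 to 18, 22 and 18 counts), with the junctional adhesion molecules on both sides, F11R at 1.82 and JAM2 at -2.68, and the claudin CLDN7 at -3.22. In 3D vs. 2D cells 4 of 14 rose and 3 fell (median 0.10) without CLDN18 (9, 12 and 11 to 0, 2 and 0 counts), CLDN1 from 62.5 ± 7.57 to 286 ± 15.8 CPM (SD, n = 3). CLDN1 was the 1 gene of 14 called with GO-203 (log2 fold change -0.45, adjusted p = 1.4e-05, edgeR, median 0.09). On MYC silencing 3 of 16 rose and 3 fell (median -0.11), with CLDN7 at -2.0 and OCLN, occludin, at -0.97.

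Mesenchymal markers rose in 4 of 7 and fell in 3 of 7 cases in 3D vs. 2D cells (median log2 fold change 0.12), where 32.0% of all genes were called higher and 31.7% lower. On MUC1 silencing they rose in 2 and fell in 5 (median -0.90), against 30.7% and 31.6%. With GO-203 they rose in 2 and fell in 0 (median 0.07), against 11.1% and 12.9%. On MYC silencing they rose in 6 and fell in 1 (median 0.45), against 30.3% and 28.1%. The medians of all genes lay between -0.01 and 0.02.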
